A study of Mus musculus with 10 samples.

Results

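Acta2, Tagln, Cnn1, Cnn2, Myl9, Tpm1, Tpm2, Actn1, Vcl and Flna encode proteins of the contractile and adhesion machinery built on actin filaments, and they are listed together as smooth muscle and SRF-type actin genes. They were taken by symbol from the raw counts table, which made 10 of its 23337 genes, and all 10 passed the filter on low counts. Messenger RNA was measured by RNA-seq in mouse embryoid bodies, the aggregates that differentiating embryonic stem cells form in suspension, made from iHA-Etv2 cells, whose HA-tagged copy of Etv2 is turned on by doxycycline. Etv2 is an ETS transcription factor needed to make blood and endothelium. There were 5 groups of 2 libraries: Flk1-positive cells of doxycycline-treated embryoid bodies at day 2.5, doxycycline-treated embryoid bodies at day 2.5, untreated embryoid bodies at day 2.5, doxycycline-treated embryoid bodies at day 2, and untreated embryoid bodies at day 2. Every group carried the inducible Etv2 construct, untreated ones included, and neither its promoter nor the number of clones behind the line is stated in the labels. Flk1, encoded by Kdr, is the VEGF receptor that marks precursors of blood and endothelium; whether the samples labelled as not Flk1-positive were left unsorted or sorted as negative is not given.

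As background, these genes are textbook targets of serum response factor (SRF), which binds a DNA element called the CArG box. Its actin-sensing partners of the MRTF family, encoded by Mkl1 and Mkl2, enter the nucleus when free actin monomers are used up by polymerisation, so the products of the pathway feed back on its own signal. Its other partners, the ternary complex factors Elk1, Elk3 and Elk4, are ETS proteins and answer to MAP kinase signalling, and myocardin (Myocd) drives the programme in smooth muscle. In development the smooth muscle genes are also read at low levels in cells that are not smooth muscle, and Acta2 and Tagln are often used as early markers of mural cells.

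The libraries held 18074070 to 36068329 counts each, and values are given as CPM, the count scaled to library size. A count of 0 would allow a level of up to 3 counts, or 0.0824 to 0.164 CPM, and the lowest member count was 91, for Acta2 in an untreated day 2.5 library. Etv2 averaged 313 CPM in Flk1-positive, 263 CPM in doxycycline-treated and 7.04 CPM in untreated samples of day 2.5, and 455 CPM with doxycycline against 16.9 CPM without it at day 2. Kdr averaged 997, 419 and 7.23 CPM in the same 3 groups of day 2.5, so both genes went with the labels. The doxycycline-treated libraries of day 2 stood apart from each other, with a chi-square per gene of 32.04 between replicates against 3.33 to 9.65 in the other groups. Their difference, replicate 1 minus replicate 2, correlated with exon length at a Spearman rho of -0.45 and with GC content at 0.32. In the other groups rho was -0.12 to 0.08 with length and -0.03 to 0.37 with GC content. What set the pair apart was not tested. Changes of the 10 genes, Srf and its partners that use this pair are given without either library where a call depended on it. The labels do not say that replicates were separate cultures, so p-values measure the spread between these libraries, which may be technical.

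Several markers of smooth muscle were low in every group, while others were not. Myh11, the smooth muscle myosin heavy chain, averaged between 0.253 and 0.465 CPM in the 5 groups, Actg2 (enteric actin) at most 0.449 CPM and Myocd at most 0.718 CPM. The list of 10 smooth muscle markers, which holds no member, summed to 221 to 228 CPM in Flk1-positive libraries, 307 to 313 CPM in doxycycline libraries and 236 to 251 CPM in untreated libraries of day 2.5. Most of that sum was Cald1 and Smtn, actin-binding genes that other cell types express too: Cald1 averaged 119 CPM and Smtn 82.3 CPM in Flk1-positive samples. Des averaged 11.1 CPM in Flk1-positive, 22.1 CPM in doxycycline and 16.8 CPM in untreated samples of day 2.5. In the same groups Itga8 averaged 5.15, 10.1 and 20.4 CPM and Mylk 3.98, 2.74 and 0.338 CPM. Of the 9 tested markers, 4 were called higher (16.1% of all tested genes) and 1 lower (13.8%) with doxycycline at day 2.5. In Flk1-positive against doxycycline samples 0 were called higher (20.5%) and 5 lower (21.3%). The 10 genes are described here as actin cytoskeleton genes of embryoid bodies.

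CArG boxes were searched in the 250 bases before and 50 bases after each RefSeq start site (GRCm38.p6), and 9 of the 10 genes had such a window in the table used, Tagln being the exception. A CArG box with no letter off was present in 3 of the 9, Myl9, Cnn2 and Vcl, and in 1.63% of all 32851 windows. Allowing 1 of the 6 inner letters to be G or C added Acta2 and made 4 of 9, against 9.98% of all windows. The 250 bases before the start site of those 4 genes are printed because they hold the matches, 5′ to 3′ on the strand of the gene, with each match in capitals.
Myl9: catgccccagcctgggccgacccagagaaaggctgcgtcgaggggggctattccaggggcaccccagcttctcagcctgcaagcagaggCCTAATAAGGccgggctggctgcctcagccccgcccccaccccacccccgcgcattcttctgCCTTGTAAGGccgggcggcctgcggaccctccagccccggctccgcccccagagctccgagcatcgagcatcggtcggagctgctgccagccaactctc
Cnn2: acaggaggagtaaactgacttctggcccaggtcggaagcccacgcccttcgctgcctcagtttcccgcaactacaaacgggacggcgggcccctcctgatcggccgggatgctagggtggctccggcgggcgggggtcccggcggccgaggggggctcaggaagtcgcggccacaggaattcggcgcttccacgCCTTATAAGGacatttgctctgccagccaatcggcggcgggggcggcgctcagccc
Vcl: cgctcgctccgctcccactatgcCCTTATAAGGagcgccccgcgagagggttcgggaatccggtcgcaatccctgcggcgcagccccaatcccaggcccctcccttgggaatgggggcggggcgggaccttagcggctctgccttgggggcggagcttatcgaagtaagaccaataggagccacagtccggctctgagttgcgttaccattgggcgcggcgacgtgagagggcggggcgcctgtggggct
Acta2: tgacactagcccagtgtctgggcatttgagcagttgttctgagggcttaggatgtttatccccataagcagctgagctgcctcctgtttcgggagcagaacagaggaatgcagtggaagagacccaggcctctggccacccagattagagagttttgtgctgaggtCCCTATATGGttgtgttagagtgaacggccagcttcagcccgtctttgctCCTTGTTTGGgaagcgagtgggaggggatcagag
These windows are chr2:156775214-156775463 on the plus strand for Myl9, chr10:79988350-79988599 on the plus strand for Cnn2, chr14:20929148-20929397 on the plus strand for Vcl and chr19:34255374-34255623 on the minus strand for Acta2. In Myl9 the perfect match begins 161 bases before the start site, and the match 99 bases before it is off by 1 inner letter. Cnn2 and Vcl hold the same 10 letters, CCTTATAAGG, beginning 56 and 227 bases before their start sites. Both matches of Acta2, 84 and 34 bases before the start site, are off by 1 inner letter. The windows of Cnn1, Tpm1, Tpm2, Actn1 and Flna held no match of either kind, which says only that these letters are absent from those 300 bases. The Flna window, chrX:74246485-74246784, lies inside the annotated span of the gene (chrX:74223461-74249820, minus strand). Bases around the 5′ end of that span were not searched.

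The 10 genes did not move as a block. At day 2.5 the doxycycline samples had lower Tagln, Cnn1, Myl9 and Tpm1 and higher Actn1 than untreated samples, while Acta2, Cnn2, Tpm2, Vcl and Flna were not called. In Flk1-positive cells the first 4 stood lower again, joined by Cnn2 and Tpm2, and Actn1 stayed at the raised level. At day 2, with Etv2 already induced, the single call was Flna. Acta2 was called lower at day 2.5 than at day 2 with and without doxycycline, and in no comparison of doxycycline or Flk1.

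Calls were made with edgeR's quasi-likelihood test on all genes at a Benjamini-Hochberg adjusted p under 0.05, and each count of members is set beside the share of the 14548 tested genes called the same way. For doxycycline against none at day 2.5, 1 of 10 genes was higher (16.1% of all genes) and 4 were lower (13.8%). Flk1-positive against doxycycline samples gave 0 higher (20.5%) and 6 lower (21.3%), and Flk1-positive against untreated samples gave 1 higher (28.6%) and 6 lower (26.6%). For doxycycline against none at day 2 the counts were 0 higher (3.11%) and 1 lower (1.56%). The median log2 fold change of the 10 genes was -0.14 with doxycycline at day 2.5, -0.52 in Flk1-positive against doxycycline samples and -0.68 in Flk1-positive against untreated samples. The median over all tested genes was at most 0.0127 from 0 in each. These 3 comparisons of day 2.5 share libraries, so their values stand side by side and are not independent. In bulk samples, fewer cells of a type and less RNA per cell cannot be told apart.

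**Figure D1:**
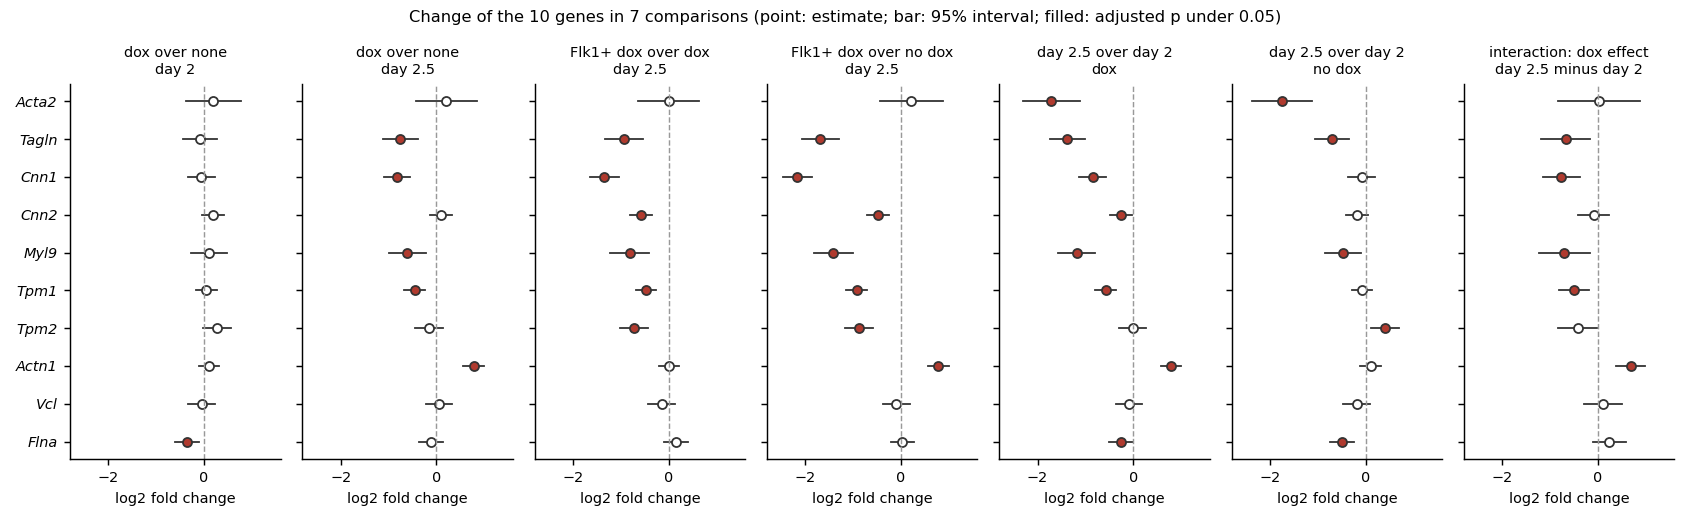
Log2 fold change (horizontal axis) of the 10 genes (rows) in 7 comparisons (panels), with the 95% interval as a bar and calls at an adjusted p under 0.05 filled. Tagln, Cnn1, Myl9 and Tpm1 lie left of 0 in the panels of day 2.5, Actn1 is called right of 0 in 4 panels, and Acta2 is called in the 2 panels that compare days.

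Among the calponin family, Cnn1 (calponin 1, an actin-binding inhibitor of myosin's ATPase, on chr9:22099216-22109630, plus strand, GRCm38) had the steepest change. It stood at 10.1 and 10.4 CPM in Flk1-positive libraries, 26.7 and 25.6 CPM in doxycycline libraries and 44.9 and 47.5 CPM in untreated libraries of day 2.5. The 3 groups did not overlap, and each was lower than the next. The fall in doxycycline against untreated samples was -0.82 ± 0.11 on the log2 scale (SE, n = 2 per group; edgeR adjusted p = 3e-05). Flk1-positive cells fell a further -1.35 ± 0.12 below doxycycline samples (edgeR adjusted p = 4.84e-07), which made them 4.50-fold lower than untreated samples. At day 2 it was 48.5 and 45.8 CPM with doxycycline against 47.2 and 50.9 CPM without, and those groups overlapped. Its call in each of 5 comparisons held under every alternative tried.

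Tagln (transgelin, or SM22, a small calponin-related actin binder; chr9:45929619-45936058, minus strand) took the same order. It had 16.4 and 15.7 CPM in Flk1-positive, 30.7 and 30.9 CPM in doxycycline and 49.7 and 53.9 CPM in untreated libraries of day 2.5, with no overlap. Its log2 change was -0.75 ± 0.14 for doxycycline against none (edgeR adjusted p = 0.000891), -0.93 ± 0.15 for Flk1-positive against doxycycline (edgeR adjusted p = 0.000181) and -1.69 ± 0.15 for Flk1-positive against untreated samples (edgeR adjusted p = 1.96e-07). Of its exonic bases, 67.9% overlap genes on the opposite strand, mostly the antisense transcript Gm48529, which is no row of the table, and in small part Pcsk7. The strand setting of the counting is not given, so antisense reads cannot be told apart from those of Tagln.

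Cnn2 (calponin 2, the broadly expressed calponin; chr10:79988584-79996062, plus strand) behaved differently at the doxycycline step. It had 118 and 120 CPM in Flk1-positive, 184 and 171 CPM in doxycycline and 162 and 170.1 CPM in untreated libraries of day 2.5. Doxycycline libraries lay just above untreated ones without overlap, a difference that was not called, and only the Flk1-positive pair was called lower. It fell by 0.58 ± 0.09 on the log2 scale in Flk1-positive against doxycycline samples (edgeR adjusted p = 0.000121), while doxycycline against none gave 0.09 with a 95% interval from -0.13 to 0.32.

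Myl9 is a regulatory light chain of smooth muscle and non-muscle myosin II, whose phosphorylation switches contraction on (chr2:156775420-156781658, plus strand). It had 7.56 and 9.91 CPM in Flk1-positive, 14.2 and 16.3 CPM in doxycycline and 23.4 and 22.9 CPM in untreated libraries of day 2.5, again in 3 separate steps. The log2 change was -0.60 ± 0.15 for doxycycline against none (edgeR adjusted p = 0.00599), -0.81 ± 0.16 for Flk1-positive against doxycycline (edgeR adjusted p = 0.000843) and -1.41 ± 0.16 for Flk1-positive against untreated samples (edgeR adjusted p = 2.28e-06). Without doxycycline day 2.5 replicate 1 the first of these calls was lost, at -0.54 (edgeR adjusted p = 0.0568).

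Tropomyosins lie along the actin filament and set which motors and binders reach it. Tpm1 (chr9:67022590-67049406, minus strand) had 202 and 206 CPM in Flk1-positive, 291 and 275 CPM in doxycycline and 381 and 393 CPM in untreated libraries of day 2.5. The 3 groups stood apart in the order seen for Cnn1, but with smaller steps. It changed by -0.45 ± 0.08 with doxycycline (edgeR adjusted p = 0.000775) and by -0.47 ± 0.08 in Flk1-positive against doxycycline samples (edgeR adjusted p = 0.000403). Tpm2 (chr4:43514711-43523765, minus strand) had 53.8 and 53.2 CPM in Flk1-positive, 89.7 and 86.5 CPM in doxycycline and 89.0 and 107 CPM in untreated libraries. Its doxycycline and untreated libraries overlapped. Like Cnn2, Tpm2 was called at day 2.5 only where Flk1-positive samples were compared. In these it fell by 0.72 ± 0.11 below doxycycline samples on the log2 scale (edgeR adjusted p = 0.000147). With doxycycline against none its change was -0.15, with a 95% interval from -0.44 to 0.14.

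Acta2, smooth muscle alpha-actin (chr19:34241090-34255590, minus strand), is the gene most often read as a smooth muscle marker. It had 5.08 and 5.35 CPM in Flk1-positive, 5.47 and 4.94 CPM in doxycycline and 3.96 and 5.01 CPM in untreated libraries of day 2.5. Doxycycline and untreated libraries overlapped, and Flk1-positive ones lay within the doxycycline range. Its log2 change was 0.21 for doxycycline against none, with a 95% interval from -0.42 to 0.85, and 0.00 for Flk1-positive against doxycycline samples, with an interval from -0.63 to 0.64. The second interval holds changes as large as that of Tpm1, so a change of that size was not detectable for Acta2 there. Its counts, 91 to 199 in the samples of day 2.5 and 257 to 459 at day 2, were the fewest among the 10 genes, and the 6 actin genes are so alike in sequence that reads shared between them could have been assigned either way.

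**Figure D2:**
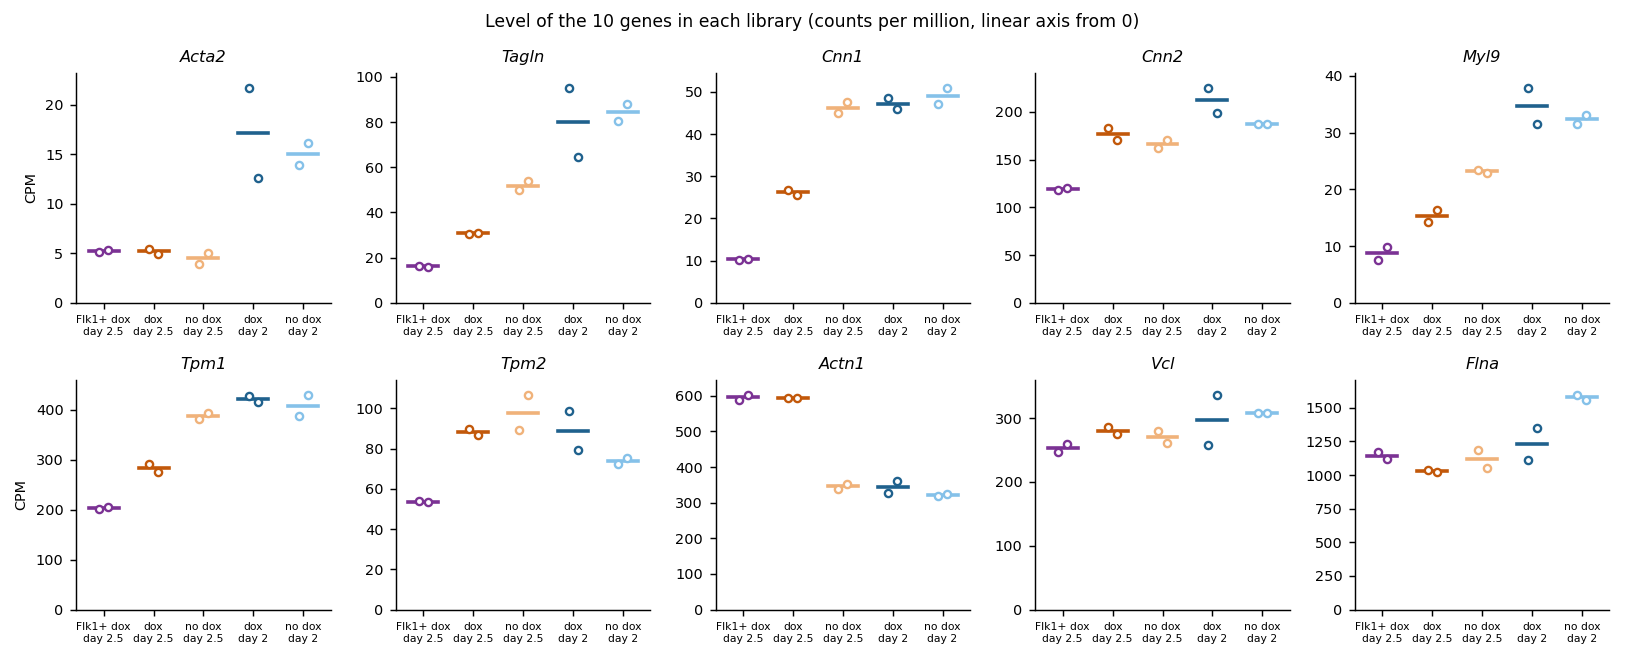
CPM (vertical axes, linear and from 0) of each of the 10 genes in the 10 libraries, by group along the horizontal axis; circles are libraries and bars are group means. Cnn1, Tagln, Myl9 and Tpm1 step up from left to right across the 3 groups of day 2.5, Actn1 is at 589 to 602 CPM in both treated groups of day 2.5 against 339 to 353 CPM in untreated samples, and Acta2 is low in every library of day 2.5.

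Actn1, Vcl and Flna couple actin to the membrane and to each other, and of the 3 Actn1 was the one called for doxycycline at day 2.5, although removing the trends of log2 CPM on exon length and GC content also brought Flna past the threshold. Actn1 (alpha-actinin 1, a crosslinker of filaments at focal adhesions and stress fibres; chr12:80167547-80260371, minus strand) had 589 and 602 CPM in Flk1-positive, 594 and 593 CPM in doxycycline and 339 and 353 CPM in untreated libraries. Both treated groups were 1.72-fold above untreated samples. The rise was 0.78 ± 0.08 on the log2 scale for doxycycline against none (edgeR adjusted p = 3.28e-06) and 0.78 ± 0.08 for Flk1-positive against untreated samples (edgeR adjusted p = 1.09e-06). Flk1-positive and doxycycline samples overlapped, and their difference was 0.00 with a 95% interval from -0.20 to 0.21. Every call of Actn1 held under all alternatives tried, and 8.2% of its exonic bases overlap antisense transcripts.

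Vcl (vinculin, which links talin and alpha-catenin to actin; chr14:20929398-21033676, plus strand) was not called in any of the 7 comparisons. It had 247 and 259 CPM in Flk1-positive, 286 and 275 CPM in doxycycline and 279 and 261 CPM in untreated libraries of day 2.5. Its highest group mean was 1.22 times its lowest, the smallest span of the 10 genes, against 5.25 times for Tagln. The 95% intervals of its 3 contrasts at day 2.5 lay between -0.42 and 0.33 on the log2 scale, and 25.5% of its exonic bases overlap Ap3m1 on the other strand. Flk1-positive against doxycycline samples, at -0.15, did pass without doxycycline day 2 replicate 1 (edgeR adjusted p = 0.0473) or replicate 2 (edgeR adjusted p = 0.0474). With length and GC trends removed Vcl was called lower in 4 comparisons: Flk1-positive against doxycycline (-0.18, edgeR adjusted p = 0.0462) and against untreated samples (-0.20, against -0.10 without that step, edgeR adjusted p = 0.0238), and day 2.5 against day 2 with doxycycline (-0.25, edgeR adjusted p = 0.00633) and without it (-0.23, edgeR adjusted p = 0.0214).

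Flna (filamin A, a crosslinker that holds filaments in orthogonal nets; chrX:74223461-74249820, minus strand) was the most abundant of the 10 genes by length, at 122 CPM per kilobase of exon in Flk1-positive samples and 168 in untreated samples of day 2. At day 2.5 it had 1170.2 and 1117 CPM in Flk1-positive, 1036 and 1023 CPM in doxycycline and 1186 and 1052 CPM in untreated libraries, and none of the 3 contrasts was called. Flk1-positive against doxycycline samples, at 0.15, did pass without doxycycline day 2 replicate 1 (edgeR adjusted p = 0.0433) or replicate 2 (edgeR adjusted p = 0.044), and with only those 2 groups in the fit (edgeR adjusted p = 0.0475). For doxycycline against none the change was -0.12, and it became a call of -0.23 with length and GC trends removed (edgeR adjusted p = 0.0111, or 0.00625 with the replicate number as a block). Flk1-positive against untreated samples gave 0.03, which turned to -0.15 with those trends removed (edgeR adjusted p = 0.0648) and was called at that value when the block was added (edgeR adjusted p = 0.0484). No direction of Flna at day 2.5 is read from these values. At day 2 it had 1110.5 and 1350.4 CPM with doxycycline against 1595 and 1561 CPM without. This was a call of -0.36 ± 0.10 (edgeR adjusted p = 0.0465) and the only one of the 10 genes for doxycycline at that day. The call did not survive when any 1 of the 8 libraries other than the doxycycline pair of day 2 was left out (edgeR adjusted p from 0.0576 to 0.319), or with only the compared groups in the fit (edgeR adjusted p = 0.316). Without doxycycline day 2 replicate 1 it was -0.23 (edgeR adjusted p = 0.0483), and without replicate 2 it was -0.51 (edgeR adjusted p = 1.4e-05).

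The other 9 genes were not called for doxycycline at day 2. Tpm1 had 428 and 416 CPM with doxycycline against 387 and 429 CPM without, and Myl9 had 37.8 and 31.4 CPM with doxycycline against 31.5 and 33.1 CPM without. Both pairs overlapped. Actn1 had 328 and 360.5 CPM with doxycycline against 319 and 326 CPM without, a difference of 0.10 with a 95% interval from -0.12 to 0.31.

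For 5 genes the result at day 2 depended on which doxycycline library was kept. Tagln had 94.98 and 64.7 CPM with doxycycline against 80.6 and 88.1 CPM without, and the treated pair lay on either side of the untreated one. Without doxycycline day 2 replicate 1 Tagln was called lower (-0.38, edgeR adjusted p = 0.0202). Cnn2 had 225 and 199 CPM with doxycycline against 187 and 187 CPM without, Tpm2 98.4 and 79.4 CPM against 72.4 and 75.2 CPM, and Vcl 257 and 336 CPM against 308 and 307 CPM. Cnn2 and Tpm2 did not overlap between the groups, while the treated pair of Vcl lay on either side of the untreated one. Without replicate 2, Cnn2 (0.27, edgeR adjusted p = 0.0226) and Tpm2 (0.42, edgeR adjusted p = 0.0035) were called higher and Vcl lower (-0.26, edgeR adjusted p = 0.0244). Acta2 spanned 21.7 and 12.6 CPM with doxycycline against 13.9 and 16.2 CPM without, so its change was 0.53 without replicate 2 and -0.26 without replicate 1, neither of them called. No direction at day 2 is read from these 5 genes.

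Between the days, Acta2 had the largest fall of the 10 genes in both conditions. Its mean was 5.20 ± 0.37 CPM at day 2.5 against 17.1 ± 6.44 CPM at day 2 with doxycycline (SD, n = 2 each), and 4.49 ± 0.75 CPM at day 2.5 against 15.05 ± 1.56 CPM at day 2 without. Every library of day 2.5 lay below every library of day 2. The fall was 3.29-fold with doxycycline (-1.72 ± 0.23 on the log2 scale, edgeR adjusted p = 3.44e-05) and 3.34-fold without (-1.74 ± 0.24, edgeR adjusted p = 0.000421). Without doxycycline day 2 replicate 1 the fall in treated samples was -1.27 (edgeR adjusted p = 2.68e-05), and without replicate 2 it was -2.06 (edgeR adjusted p = 6.71e-10).

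With doxycycline, day 2.5 against day 2 gave 1 of 10 genes higher (22.9% of all tested genes) and 7 lower (23.1%). Beside Acta2 these were Tagln (-1.38 ± 0.14), Myl9 (-1.18 ± 0.15), Cnn1 (-0.85 ± 0.11), Tpm1 (-0.57 ± 0.08), Cnn2 (-0.26 ± 0.09) and Flna (-0.26 ± 0.10), with Actn1 higher (0.79 ± 0.08). Leaving out either doxycycline day 2 library kept every call but those of Cnn2, lost without replicate 1 (-0.17, edgeR adjusted p = 0.0944), and Flna, lost without replicate 2 (-0.11, edgeR adjusted p = 0.23). Cnn2 was also lost without doxycycline day 2.5 replicate 1 (edgeR adjusted p = 0.0537) or replicate 2 (edgeR adjusted p = 0.203), and Flna without 7 of the 10 libraries in turn (edgeR adjusted p from 0.0551 to 0.23). With only the compared groups in the fit both Cnn2 (edgeR adjusted p = 0.116) and Flna (edgeR adjusted p = 0.134) were lost, and with length and GC trends removed Cnn2 was lost (-0.12, edgeR adjusted p = 0.142). Vcl, not called here, was called lower without doxycycline day 2 replicate 1 (-0.26, edgeR adjusted p = 0.00675).

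Without doxycycline, day 2.5 against day 2 gave 1 gene higher (9.22%) and 4 lower (10.3%). Beside Acta2 the lower genes were Tagln (-0.70 ± 0.14), Flna (-0.50 ± 0.10) and Myl9 (-0.48 ± 0.15), and Tpm2 was higher (0.41 ± 0.11). Cnn1 and Tpm1 were not called between the days in untreated samples, at -0.08 with a 95% interval from -0.36 to 0.19 and -0.07 with an interval from -0.29 to 0.14. The Myl9 call was lost without untreated day 2 replicate 1 (edgeR adjusted p = 0.122) or 2 (edgeR adjusted p = 0.183), untreated day 2.5 replicate 1 (edgeR adjusted p = 0.107) or 2 (edgeR adjusted p = 0.175), or doxycycline day 2.5 replicate 1 (edgeR adjusted p = 0.0524), or with length and GC trends removed (-0.33, edgeR adjusted p = 0.0955). The Tpm2 call was lost without untreated day 2 replicate 1 (edgeR adjusted p = 0.151) or 2 (edgeR adjusted p = 0.103) or untreated day 2.5 replicate 2 (0.27, edgeR adjusted p = 0.241), and without the last of these Flna was lost too (-0.41, edgeR adjusted p = 0.0687). Cnn2 (-0.17) and Vcl (-0.19) were called lower without doxycycline day 2 replicate 1 (edgeR adjusted p = 0.0473 and 0.0231) or replicate 2 (edgeR adjusted p = 0.0478 and 0.0237), and Vcl also with only the compared groups in the fit (-0.17, edgeR adjusted p = 0.0429).

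Whether the effect of doxycycline differed between the days was tested as an interaction, the log2 effect at day 2.5 minus that at day 2. It was called for 1 gene higher (6.87% of all tested genes) and 4 lower (5.24%). For Cnn1 the effect was -0.82 at day 2.5 and -0.05 at day 2, an interaction of -0.77 ± 0.15 (edgeR adjusted p = 0.00364). For Actn1 it was 0.78 at day 2.5 and 0.10 at day 2, an interaction of 0.68 ± 0.12 (edgeR adjusted p = 0.00119). Both held without any 1 library. Tpm1 (-0.50 ± 0.12, edgeR adjusted p = 0.0122) was lost without untreated day 2 replicate 1 (edgeR adjusted p = 0.117), doxycycline day 2.5 replicate 2 (edgeR adjusted p = 0.0921) or untreated day 2.5 replicate 2 (edgeR adjusted p = 0.0519). Myl9 (-0.70 ± 0.21, edgeR adjusted p = 0.0377) was lost without any 1 of the untreated libraries or of the doxycycline libraries of day 2.5 (edgeR adjusted p from 0.0693 to 0.158), or with length and GC trends removed (-0.54, edgeR adjusted p = 0.0714). Tagln (-0.67 ± 0.20, edgeR adjusted p = 0.0384) was lost without any 1 of those 6 libraries or without doxycycline day 2 replicate 1, when it was -0.37 (edgeR adjusted p from 0.0707 to 0.168), or with only the compared groups in the fit (edgeR adjusted p = 0.0657). Tpm2 was called lower with length and GC trends removed (-0.37, edgeR adjusted p = 0.0452) or with no filter on low counts (-0.45, edgeR adjusted p = 0.0404). Without doxycycline day 2 replicate 2, Tpm2 (-0.57, edgeR adjusted p = 0.00108), Vcl (0.31, edgeR adjusted p = 0.0219) and Flna (0.39, edgeR adjusted p = 0.00326) were called as well.

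Srf itself took the same order as Cnn1 and Tpm1 at day 2.5. It had 87.3 and 79.2 CPM in Flk1-positive, 118 and 118 CPM in doxycycline and 172 and 175 CPM in untreated libraries, and 149 and 148 CPM with doxycycline against 146 and 149.8 CPM without at day 2. The 3 groups of day 2.5 stood apart and those of day 2 overlapped. Srf fell by 0.56 ± 0.08 with doxycycline on the log2 scale (edgeR adjusted p = 0.000124) and by 0.50 ± 0.08 in Flk1-positive against doxycycline samples (edgeR adjusted p = 0.000256), and its interaction was -0.56 ± 0.12 (edgeR adjusted p = 0.006). That interaction was -0.56 without doxycycline day 2 replicate 1 and without replicate 2. The interactions of Mkl2 (0.50) and Elk1 (0.46) were not called with all libraries, and both their size and whether they were called depended on this pair. They were 0.15 and 0.34 without replicate 1, and 0.97 and 0.59 without replicate 2. Of the 7 genes of SRF and its partners, 3 were higher (Elk3, Mkl2 and Myocd) and 1 lower (Srf) with doxycycline at day 2.5. The shares of all tested genes were 16.1% higher and 13.8% lower. For doxycycline at day 2 it was 1 higher (3.11%), Elk3, and 0 lower (1.56%). In Flk1-positive against doxycycline samples it was 1 higher (20.5%), Elk4, and 1 lower (21.3%), Srf. The counts at day 2 changed without doxycycline day 2 replicate 1 and without replicate 2. They are not given, because the share of all genes called was not computed for those fits. Mkl2 was called in opposite directions in these fits, at 0.45 without replicate 1 (edgeR adjusted p = 0.00594) and -0.37 without replicate 2 (edgeR adjusted p = 0.0305), and Elk1 was called lower without replicate 2 (-0.40, edgeR adjusted p = 0.0111).

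Elk3 (Net), a ternary complex factor that can repress SRF targets, moved most among the partners. It averaged 135 ± 4.27 CPM in Flk1-positive, 140 ± 6.47 CPM in doxycycline and 9.02 ± 0.08 CPM in untreated samples of day 2.5 (SD, n = 2 each). At day 2 it was 53.3 ± 6.94 CPM with doxycycline against 9.16 ± 0.70 CPM without. It rose by 2.54 ± 0.12 at day 2 (edgeR adjusted p = 2.86e-09) and by 3.95 ± 0.12 at day 2.5 (edgeR adjusted p = 2.69e-12). The rise at day 2 was 2.67 without doxycycline day 2 replicate 1 (edgeR adjusted p = 2.44e-18) and 2.41 without replicate 2 (edgeR adjusted p = 8e-17). Mkl1, which encodes MRTF-A, averaged 46.4, 54.6 and 51.8 CPM in the Flk1-positive, doxycycline and untreated samples of day 2.5. Mkl2, which encodes MRTF-B, rose by 0.60 ± 0.18 with doxycycline at day 2.5 (edgeR adjusted p = 0.0233). Myocd stayed under 1 CPM in the mean of each group, so its call rests on few counts.

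**Figure D3:**
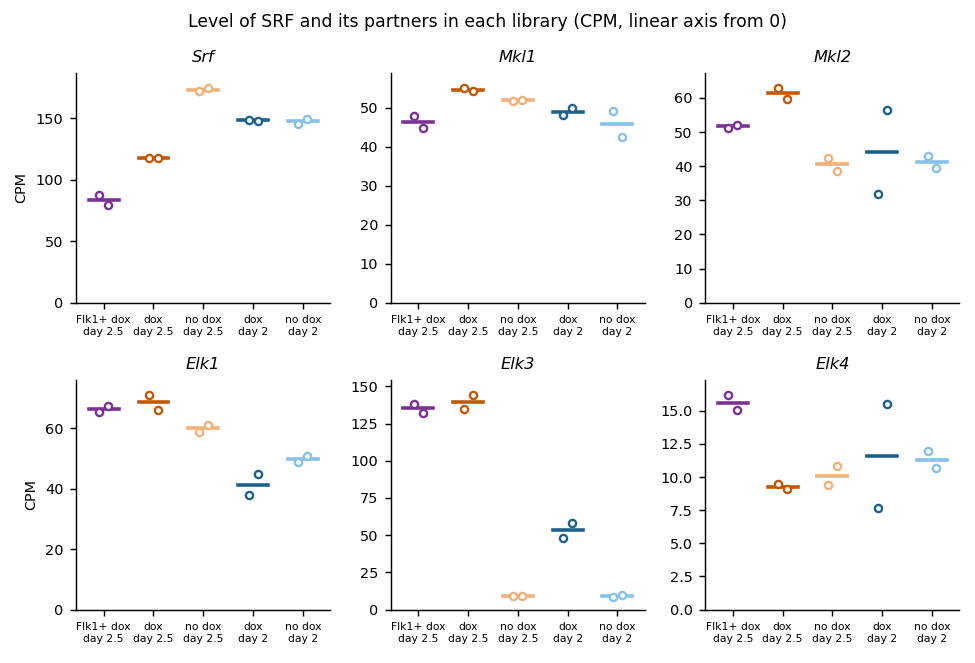
CPM (vertical axes, linear and from 0) of Srf, the MRTF genes Mkl1 and Mkl2 and the ternary complex factor genes Elk1, Elk3 and Elk4 in the 10 libraries, by group; circles are libraries and bars are group means. Srf steps up across the 3 groups of day 2.5, while Elk3 is above 130 CPM in both treated groups of day 2.5 and near 9 CPM in both untreated groups.

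Of the 10 genes, 8 were also set against the family relative with the highest mean CPM over the 10 libraries, as a ratio of CPM within a library that does not depend on library scaling. The choice of relative was not the same on every scale: Myl12a averaged 201 CPM against 179 CPM for Myl12b in untreated samples of day 2, and per kilobase of exon Tpm4 was above Tpm3 in each group. Tagln was 0.105 of Tagln2, the broadly expressed transgelin, in Flk1-positive, 0.144 in doxycycline and 0.337 in untreated samples of day 2.5. With doxycycline Tagln2 rose (0.48 ± 0.09 on the log2 scale, edgeR adjusted p = 0.00077) while Tagln fell. In Flk1-positive samples Tagln2 was not raised, at 154 CPM against 214 CPM in doxycycline and 154 CPM in untreated samples. Cnn1 was 0.0312 of Cnn3 in Flk1-positive, 0.0568 in doxycycline and 0.103 in untreated samples. Myl9 was 0.0480 of Myl12b, a non-muscle light chain, in Flk1-positive, 0.0519 in doxycycline and 0.0957 in untreated samples, and the Flk1-positive and doxycycline libraries overlapped. The ratios are a description and were not tested.

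Actn1 was a larger part of the alpha-actinin messages in both treated groups of day 2.5. It was 0.909 of Actn4 in Flk1-positive, 0.783 in doxycycline and 0.492 in untreated samples of day 2.5. By exon length, Actn1 made up 48.5% and 49.9% of alpha-actinin messages in Flk1-positive, 46.0% and 44.7% in doxycycline and 32.7% and 34.4% in untreated libraries.

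Acta2 was a trace of the actin pool. It made up 0.262% and 0.279% of the 6 actin messages by length in Flk1-positive, 0.245% and 0.221% in doxycycline and 0.171% and 0.237% in untreated libraries of day 2.5, and 0.752% and 0.489% with doxycycline against 0.528% and 0.631% without at day 2. Actb and Actg1, the cytoplasmic actins, supplied most of the rest. Actc1 (cardiac alpha-actin) averaged 1.10 CPM in Flk1-positive, 2.43 CPM in doxycycline and 6.72 CPM in untreated samples of day 2.5, and unlike Acta2 it fell with doxycycline (-1.47 ± 0.29 on the log2 scale, edgeR adjusted p = 0.00136). Tpm1 made up 12.0% and 11.9% of tropomyosin messages by length in Flk1-positive, 15.4% and 14.9% in doxycycline and 19.3% and 19.2% in untreated libraries.

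**Figure D4:**
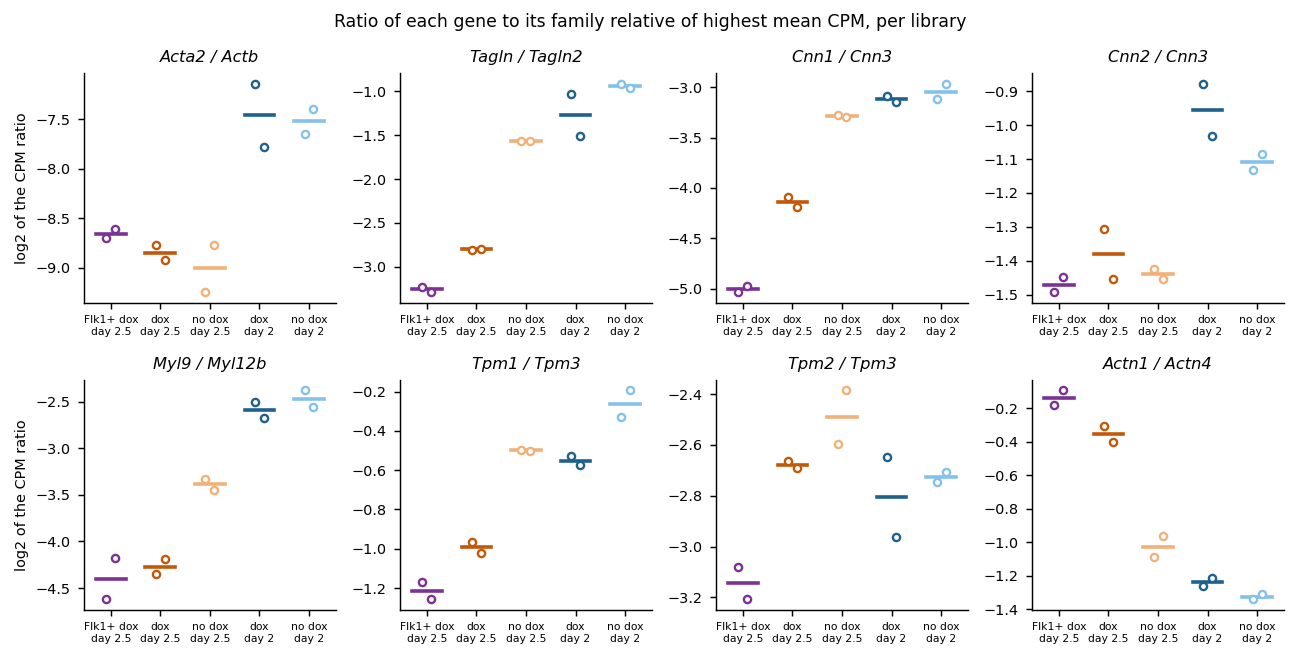
Log2 of the CPM ratio (vertical axes, each with its own range) of 8 of the 10 genes to the family relative of highest mean CPM, by group; circles are libraries and bars are group means. The ratios of Tagln and Cnn1 step up across the 3 groups of day 2.5 and that of Actn1 steps down; Vcl and Flna are not plotted.

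Of 17 tested paralogues of the members, 4 were higher (16.1% of all tested genes) and 5 lower (13.8%) with doxycycline at day 2.5. In Flk1-positive against doxycycline samples 4 were higher (20.5%) and 8 lower (21.3%). Their median log2 change was 0.03 for doxycycline and -0.18 for Flk1-positive against doxycycline samples. Of 18 further actin cytoskeleton and adhesion genes, 7 were higher (16.1%) and 3 lower (13.8%) with doxycycline. Pxn (paxillin, 1.08 ± 0.10), Msn (moesin, 0.80 ± 0.11), Tln1 (talin 1, 0.57 ± 0.09) and Myh9 (non-muscle myosin heavy chain, 0.56 ± 0.09) rose, and Ezr (ezrin, -0.56 ± 0.10), Pdlim7 (-0.48 ± 0.10) and Zyx (zyxin, an SRF-responsive focal adhesion gene, -0.47 ± 0.08) fell. In Flk1-positive against doxycycline samples, 1 was higher (20.5%), Tln1 (0.70 ± 0.09), and 7 were lower (21.3%). The lower ones were led by Ezr (-1.73 ± 0.10), Zyx (-1.04 ± 0.09), Cfl1 (cofilin, -0.91 ± 0.08) and Pfn1 (profilin, -0.89 ± 0.09).

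The matricellular genes Ctgf and Cyr61, which answer to the tension-sensing factor YAP as well as to SRF, were lower too. Ctgf averaged 9.53 ± 0.14 CPM in Flk1-positive, 52.5 ± 2.502 CPM in doxycycline and 73.8 ± 9.28 CPM in untreated samples of day 2.5 (SD, n = 2 each). Its change was -2.46 ± 0.12 on the log2 scale in Flk1-positive against doxycycline samples (edgeR adjusted p = 1.85e-09), past that of every member. Cyr61 averaged 17.2, 35.9 and 61.2 CPM in the same groups. Of the 3 tested genes of this list, 3 were lower with doxycycline (13.8% of all tested genes) and 2 in Flk1-positive against doxycycline samples (21.3%). The other tested gene, Amotl2, had a positive change in the latter comparison that was not called. It averaged 133 CPM in Flk1-positive, 113 CPM in doxycycline and 163 CPM in untreated samples of day 2.5.

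Markers of other cells also differed between the groups of day 2.5, though not every marker of a list took the same order. Their calls stand beside 16.1% of all tested genes higher and 13.8% lower with doxycycline at day 2.5. For Flk1-positive against doxycycline samples these shares were 20.5% and 21.3%. The 5 endothelial markers summed to 204 to 205 CPM in Flk1-positive, 71.7 to 81.8 CPM in doxycycline and 6.34 to 7.83 CPM in untreated libraries of day 2.5, and all 5 were higher with doxycycline. In Flk1-positive against doxycycline samples 3 of the 5 were higher and 1 lower, Pecam1, at 5.40 CPM against 8.35 CPM (-0.63, edgeR adjusted p = 0.0383). The 6 pluripotency and streak markers summed to 1516 to 1603 CPM in Flk1-positive, 1604 to 1659 CPM in doxycycline and 3848 to 4079 CPM in untreated libraries, and all 6 were lower with doxycycline. In Flk1-positive against doxycycline samples 4 of the 6 were lower and 1 higher, the streak gene T, at 561 CPM against 362 CPM (0.63, edgeR adjusted p = 3e-05). Of the 5 pericyte markers, which summed to 73.1 to 83.3 CPM, 155 to 165 CPM and 197 to 229.7 CPM in the same groups, 2 of 4 tested were lower with doxycycline, and 2 of the 4 had a positive change. Nearly all of that sum was Notch3, which averaged 72.3 CPM in Flk1-positive, 152 CPM in doxycycline and 201 CPM in untreated samples, while Pdgfrb averaged 4.60, 5.70 and 10.9 CPM. The 6 extraembryonic endoderm markers summed to 127 to 136 CPM, 58.3 to 67.3 CPM and 28.2 to 30.8 CPM in the same groups. Gata6, at 80.5, 40.4 and 17.96 CPM, and Sox17, at 41.4, 10.8 and 0.506 CPM, made that order. Gata4 was not called, at 9.21, 11.4 and 10.7 CPM, and Afp, Ttr and Apoa1 averaged at most 0.365 CPM in these 3 groups. The 7 fibroblast markers summed to 21.1 to 24.2 CPM, 30.3 to 40.1 CPM and 27.6 to 30.7 CPM, with 4 of 7 at 0 counts in Flk1-positive libraries, the 7 cardiac markers to 12.0 to 19.6 CPM over the 10 libraries, and the 5 skeletal muscle markers to at most 1.85 CPM. The part of these markers' cells in the levels of the 10 genes was not tested.

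Across the 10 libraries, Tagln, Cnn1, Myl9 and Tpm1 ran closest together among the members, with pairwise Pearson correlations of log2 CPM from 0.949 to 0.986, and Actn1 ran against each of them, at -0.867 to -0.915. These correlations describe 5 group means more than 10 independent points and carry no test. The search covered 10650 genes outside the members that had a named symbol and reached 5 CPM on average in some group. Of these, the genes most like Cnn1 were Etv5 (r = 0.997), Phlda2 (0.997) and Emilin2 (0.996). Etv5, an ETS factor of the PEA3 family, averaged 12.3 CPM in Flk1-positive, 106 CPM in doxycycline and 391 CPM in untreated samples of day 2.5. Those most like Tagln were Gsta4 (0.994) and the chaperonin genes Cct3 (0.994) and Cct7 (0.993). Acta2 ran with Arpc4 (0.979), a subunit of the actin-nucleating Arp2/3 complex, Pomp (0.978) and Actl6a (0.972), and Tpm2 with Mlf2 (0.980), Ndufa8 (0.979) and Rpl14 (0.976).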

How the data were processed

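Messenger RNA of 10 libraries, 2 in each of 5 groups, was available as raw counts per gene, as the authors deposited them. Per the submitters' processing notes, TopHat, HTSeq and DESeq2 were used with genome build mm10; versions and roles are not stated. Nor are the annotation, the strand setting or the treatment of reads that map to several places. After 92 spike-in entries, all at 0, were left out, 23337 genes remained.

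The analysis ran in R 4.3.3 with edgeR 4.0.16: filterByExpr (minimum count 10, minimum total 15) left 14548 genes, libraries were scaled by TMM, and all 10 libraries entered a robust quasi-likelihood fit with a mean for each group (5 residual degrees of freedom). Each of 7 comparisons was adjusted by Benjamini and Hochberg over all genes, with a threshold of 0.05. Standard errors come from the quasi-likelihood F statistic, CPM use the scaled library sizes, and n is 2 per group throughout. Depth limits precision through counting error only in part, since replicates also differ beyond it.

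The 10 genes and the lists (SRF and its cofactors, paralogues, actin cytoskeleton and adhesion, matricellular targets, and smooth muscle, cardiac, skeletal muscle, fibroblast, pericyte, endothelial, extraembryonic endoderm, and pluripotency and streak markers) were chosen with earlier results of these data known. All 10 genes are named in each comparison. Up to 4 genes per list and comparison were open to naming by smallest adjusted p; others named were chosen for their role or after their values were seen. For Acta2, Tagln, Cnn1 and Tpm2 the 3 genes with the highest Pearson correlation of log2 CPM (prior count 2) were named. Members and clone-type or predicted symbols, such as those of the Rik, Gm and LOC kinds, were left out of that search.

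Exon length, overlap and coordinates come from GENCODE M21 (GRCm38), to which 97.5% of the table's entries matched by name, and promoter sequence from RefSeq (GRCm38.p6). Alternatives were no filter, DESeq2 1.42.0, only the compared groups, the replicate number as a block, removal of exon length and GC trends, and leaving out each library; leaving out both doxycycline day 2 libraries, and each of them for Srf and its partners, was added after seeing the data. The code was tested on simulated counts.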

Additional observations from a re-analysis of the deposited data

Results flagged for a closer look

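For 5 of the 10 genes the effect of doxycycline differed between day 2.5 and day 2 by the test of the interaction itself (edgeR, adjusted over all 14548 genes). The difference in log2 fold change, day 2.5 minus day 2, was -0.77 for Cnn1, -0.70 for Myl9, -0.67 for Tagln, -0.50 for Tpm1 and 0.68 for Actn1. The background is 6.87% of all tested genes higher and 5.24% lower. Those of Cnn1 and Actn1 stayed past the threshold without any 1 library, while those of Tagln, Myl9 and Tpm1 did not. Groups of 2 libraries are too small for a test of single outlying samples, and no such test was run. The spread between replicates and the fits without each library are given instead.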

How the results depend on the processing

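Of 1160 values of the 10 genes under the alternatives, 1024 kept their direction and their side of the threshold, 53 fell short of it, 35 passed it and 48 changed sign. None of the 615 values whose main result was a call changed sign, and no scaling moved the median over all genes by more than 0.1 on the log2 scale. Same-numbered replicates did not deviate together (correlations from -0.034 to 0.098), and the replicate block changed no count of called genes by more than 1.5 times; with it, doxycycline against none at day 2 still gave 0 genes higher and 1 lower. Only the compared groups in the fit gave 0 lower for doxycycline at day 2, and 1 higher, Flna, for Flk1-positive against doxycycline samples; it also lost the Tagln interaction (edgeR adjusted p = 0.0657) and the Cnn2 (0.116) and Flna (0.134) calls between days with doxycycline, and gained Vcl between days without it (0.0429). Leaving out both doxycycline day 2 libraries also gave 1 higher in that comparison. For counts without a library, the share of all genes called in the same fit was not computed. A gained or lost call there is not read as particular to the 10 genes. Leaving out each library gave 0 to 2 higher and 0 to 2 lower for doxycycline at day 2, 0 to 1 higher for Flk1-positive against doxycycline, 0 to 1 higher and 2 to 6 lower for untreated day 2.5 against day 2, and 1 to 3 higher and 1 to 5 lower for the interaction. With length and GC trends removed (98.9% of genes had both), the Myl9 calls for the interaction (-0.54, edgeR adjusted p = 0.0714) and for untreated samples between days (-0.33, edgeR adjusted p = 0.0955) and the Cnn2 call for doxycycline samples between days (-0.12, edgeR adjusted p = 0.142) were lost, and 6 calls were gained: Flna for doxycycline at day 2.5 (-0.23), Vcl in 4 comparisons (-0.18 to -0.25) and the Tpm2 interaction (-0.37); the cause was not tested.

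Of the 48 values that changed sign, 1 was past the threshold: Flna in Flk1-positive against untreated samples, 0.03 as reported, was -0.15 with length and GC trends removed and the replicate block (edgeR adjusted p = 0.0484). Length and GC removal, alone or with the replicate block, gave 0.00 and -0.02 for Vcl with doxycycline at day 2 and day 2.5 and -0.02 for its interaction, -0.04 for Actn1 in Flk1-positive against doxycycline, -0.15 for Flna in Flk1-positive against untreated samples and 0.08 for Tpm2 in doxycycline day 2.5 against day 2. With no filter the changes of Acta2 and Actn1 in Flk1-positive against doxycycline samples and the Acta2 interaction came to 0.00 and Flna in Flk1-positive against untreated samples to -0.01; the fit of only the compared groups also gave 0.00 for Acta2. Leaving out each library, the ranges for doxycycline at day 2 were -0.26 to 0.53 (Acta2), -0.38 to 0.17 (Tagln), -0.11 to 0.00 (Cnn1), -0.04 to 0.23 (Myl9), -0.03 to 0.13 (Tpm1) and -0.26 to 0.13 (Vcl), and at day 2.5 -0.01 to 0.10 (Vcl). For Flk1-positive against doxycycline they were -0.07 to 0.08 (Acta2) and -0.01 to 0.03 (Actn1), and against untreated samples -0.06 to 0.12 (Flna). Between days they were -0.15 to 0.00 (Tpm1, untreated), and -0.16 to 0.15 (Tpm2) and -0.26 to 0.12 (Vcl) with doxycycline. For the interaction they were -0.32 to 0.47 (Acta2), -0.17 to 0.00 (Cnn2) and -0.07 to 0.31 (Vcl).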
